A study of Mus musculus with 17 samples.

Results

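The genes described here were Hoxa3, Hoxa5, Hoxa6, Hoxa7, Hoxa9, Hoxa10, Hoxb4, Meis1 and Pbx3, 9 of the 47643 gene rows of a count table of mouse bone marrow progenitors. They were chosen by name as the Hox genes active in early blood cells together with the cofactors Meis1 and Pbx3, and each was found by its Ensembl identifier. All 9 had enough counts to be tested. RNA was sequenced from 17 libraries of bone marrow cells sorted as cKit+ Lymph- Ery-, that is, cells carrying the stem and progenitor receptor cKit and lacking lymphoid and erythroid surface markers. The study set mice with a deletion of 1 copy of the URE, an upstream enhancer of the PU.1 gene Spi1, and loss of the DNA demethylase Tet2 against mice with either change alone or none.

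The compound groups were UREΔ/+;Tet2+/- (URE het Tet2 het, 2 libraries) and UREΔ/+;Tet2-/- (URE het Tet2 KO, 3 libraries), and all 5 were labelled acute myeloid leukaemia (AML). The 12 libraries labelled Normal were UREΔ/+;Tet2+/+ (URE het, 3 libraries), URE+/+;Tet2+/- (Tet2 het, 3 libraries), URE+/+;Tet2-/- (Tet2 KO, 3 libraries) and URE+/+;Tet2+/+ (wild type, WT, 3 libraries). The compound groups are written below as compound het and compound KO, and their libraries as compound het 1 and 2 and compound KO 1, 2 and 3. Controls were age-matched per the series' design text, and the labels used here gave no age, strain or Cre driver. Because all AML libraries are compound mutants, leukaemia and the combined genotype cannot be told apart here. The labels do not say that the libraries came from separate mice, so p-values measure the spread between libraries, which may be technical.

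Hox proteins are homeodomain transcription factors encoded in clusters, and those of the Hoxa cluster are active in blood stem cells and early progenitors and are switched off as cells mature. Meis1 and Pbx3 are homeodomain proteins of the TALE class that bind DNA together with Hox proteins and make their binding more selective. Hoxa9 with Meis1 is a well known driver pair of acute myeloid leukaemia, in mice and in patients, while other leukaemias carry little of either.

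Gene counts ran from 21.1 M to 38.25 M per library (median 32.17 M), of which mitochondrial ribosomal RNA took 24.63 to 41.07%. The levels below are CPM, counts per 1 M gene counts of a library, scaled by TMM, a factor that aligns library composition. No replicate pair agreed within counting noise. The progenitor marker Kit stood at 117 to 170 CPM in AML and 99.9 to 187 CPM in Normal libraries, and the myeloid progenitor enzyme Mpo at 4440 to 7740 CPM in AML and 2240 to 6540 CPM in Normal. Tet2 counts, which cover the whole gene and so do not check its deletion, were 112 to 234 CPM in AML libraries, 80.2 to 86.2 CPM in Tet2 KO and 108 to 133 CPM in WT. AML libraries compound het 1, compound KO 2 and compound KO 3 stood apart from the rest: genes on chromosome 2 between 60 and 160 Mb were at medians of 53.2%, 51.7% and 50.6% of the Normal median there (335 genes). The same measure was 87.7% in compound het 2, 107% in compound KO 1 and 94.9 to 104% in Normal libraries. Pbx3 lies on chromosome 2 outside that stretch and no other member lies on chromosome 2.

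The 6 Hoxa members lie on the minus strand of chromosome 6 (GRCm38, GENCODE vM21), in the order Hoxa3 (52169062 to 52213336), Hoxa5 (52201754 to 52204587), Hoxa6 (52206288 to 52208722), Hoxa7 (52214491 to 52221854), Hoxa9 (52223100 to 52231089) and Hoxa10 (52231197 to 52240854). Meis1 spans chromosome 11 from 18879817 to 19018985 on the minus strand, Hoxb4 chromosome 11 from 96318267 to 96321638 on the plus strand, and Pbx3 chromosome 2 from 34171457 to 34373142 on the minus strand. The strand setting of the counting was not given, so reads of overlapping genes cannot be told apart. Hoxa3 shares 503 exon bases with the antisense RNA Hoxaas2 and 482 with the same-strand gene Gm28308, Hoxa7 shares 586 with the antisense RNA Hoxaas3, and Meis1 shares 896 with the antisense RNA Gm16140 and 1029 with the same-strand gene Gm37818. Hoxa9 contains the microRNA gene Mir196b. Hoxa5, Hoxa6, Hoxa10, Hoxb4 and Pbx3 share no exon bases with another gene, and their counts are more certain in that respect.

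Promoter windows of 300 bases, 250 before and 50 after the annotated start, were matched for 8 members in 9 windows (RefSeq, GRCm38.p6). Those shown belong to the members on which the results turn: Meis1 and Hoxa10, which passed the test in AML against Normal, Hoxa9, which lay outside the Normal range in all 5 AML libraries, and Hoxb4, which was not low in any of them. Each window was searched on both strands for GAGGAA, the core recognised by PU.1 and other ETS factors, and for the motifs TGACAG (Meis proteins) and TGATNNAT (Hox with Pbx proteins). Capitals mark matches, on either strand. The Hoxa10 window is the one at the gene's upstream start. The Hoxa9 window is at a start inside the gene span given above, not at its upstream end at 52231089.
Meis1, chr11:19018920-19019219, minus strand: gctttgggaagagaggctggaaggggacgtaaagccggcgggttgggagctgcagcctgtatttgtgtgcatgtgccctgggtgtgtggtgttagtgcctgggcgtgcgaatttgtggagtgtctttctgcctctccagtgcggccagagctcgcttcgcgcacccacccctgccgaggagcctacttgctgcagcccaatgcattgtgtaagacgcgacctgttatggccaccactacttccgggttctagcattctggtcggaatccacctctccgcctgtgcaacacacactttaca
Hoxa9, chr6:52227321-52227620, minus strand: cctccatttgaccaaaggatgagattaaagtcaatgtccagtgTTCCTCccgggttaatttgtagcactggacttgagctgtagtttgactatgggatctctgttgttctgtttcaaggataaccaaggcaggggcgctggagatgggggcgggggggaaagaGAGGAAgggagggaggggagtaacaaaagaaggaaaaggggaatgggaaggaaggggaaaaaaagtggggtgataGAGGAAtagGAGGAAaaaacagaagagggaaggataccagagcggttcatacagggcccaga
Hoxa10, chr6:52240805-52241104, minus strand: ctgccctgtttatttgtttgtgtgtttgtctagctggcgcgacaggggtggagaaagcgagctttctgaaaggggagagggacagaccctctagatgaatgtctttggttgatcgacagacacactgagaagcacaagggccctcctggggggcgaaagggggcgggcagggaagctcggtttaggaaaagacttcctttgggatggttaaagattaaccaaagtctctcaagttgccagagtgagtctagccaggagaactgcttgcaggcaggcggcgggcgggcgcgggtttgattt
Hoxb4, chr11:96318017-96318316, plus strand: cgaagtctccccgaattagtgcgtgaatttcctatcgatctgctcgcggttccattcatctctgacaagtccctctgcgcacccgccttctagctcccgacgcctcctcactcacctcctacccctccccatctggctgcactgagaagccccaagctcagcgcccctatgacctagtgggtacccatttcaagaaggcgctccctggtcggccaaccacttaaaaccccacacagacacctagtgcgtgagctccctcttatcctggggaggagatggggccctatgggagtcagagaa
The Hoxa9 window held 4 matches to GAGGAA, starting 207, 87, 12 and 3 bases before the annotated start, and the other windows held none. Over all 32851 promoter windows, 28.3% held at least one GAGGAA, 19.2% held TGACAG and 8.85% held TGATNNAT. Among members TGACAG was found once, in the Hoxa3 window, and TGATNNAT in none. These are letter matches in one window per start and describe the sequence alone. The number of CG pairs per window ran from 4 in Hoxa9 to 29 in Hoxa5, and 68.6% of all windows held at least as many as Hoxa9.

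Set per kilobase of exon, so that genes can be compared, Meis1 was the member with the highest level in the 12 Normal libraries, at 3.0 ± 1.24 CPM per kb (SD, n = 12 here and in the rest of this order). Pbx3 followed at 1.26 ± 0.327, Hoxa7 at 1.18 ± 0.40 and Hoxa9 at 1.13 ± 0.521 CPM per kb. Meis1 was above Pbx3 in all 12 Normal libraries, whereas Pbx3 was above Hoxa7 in 8 of 12 and Hoxa7 above Hoxa9 in 6 of 12, so that those neighbours did not differ beyond their spread. Hoxb4 (0.734 ± 0.225), Hoxa5 (0.681 ± 0.253) and Hoxa6 (0.589 ± 0.316 CPM per kb) were also within each other's spread. Hoxa10 at 0.249 ± 0.122 and Hoxa3 at 0.112 ± 0.0789 CPM per kb came last, and each was below the gene before it in 12 of 12 libraries.

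The main pattern was a split among the 5 AML libraries. In compound het 1 and in compound KO 2 and 3, Meis1 and the 6 Hoxa genes lay below all 12 Normal libraries and held 0 to 4 reads each, except Hoxa5 with 11 reads in compound KO 3. In compound KO 1 most were low but some remained. In compound het 2 they were inside the Normal range, or above it in the case of Hoxa9. Pbx3 was highest in the nearly silent libraries and Hoxb4 was not low in any AML library. For Hoxa3, whose lowest Normal library held 2 reads, the position of the nearly silent libraries was within counting error. The same held for Hoxa5 in compound KO 3, since its lowest Normal library held 10 reads.

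Taken library by library, 7 of 9 members lay below all 12 Normal libraries in compound het 1, where 21.6% of all genes tested did, and 2 (Hoxb4 and Pbx3) lay above, where 21.5% did. In compound KO 2 and 3, 7 of 9 lay below (backgrounds 22.0% and 18.5%) and 1, Pbx3, above (22.7% and 20.9%). In compound KO 1, 6 lay below (15.3%) and 0 above (14.9%). Of these 6, only Meis1 stayed under its lowest Normal level of 12.9 CPM when counting error was allowed for (exact 95% Poisson interval 2.05 to 3.41 CPM). The intervals of Hoxa3, Hoxa5, Hoxa6, Hoxa9 and Hoxa10 in that library reached past their lowest Normal levels. In compound het 2, 1 member lay below (15.2%), 1 above (20.5%) and 7 within the range. Set against the other 11 Normal libraries in the same way, a Normal library had 0 to 2 members below and 0 to 3 above, where 4.77 to 14% of genes were below and 5.3 to 12.4% above.

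**Figure D1:**
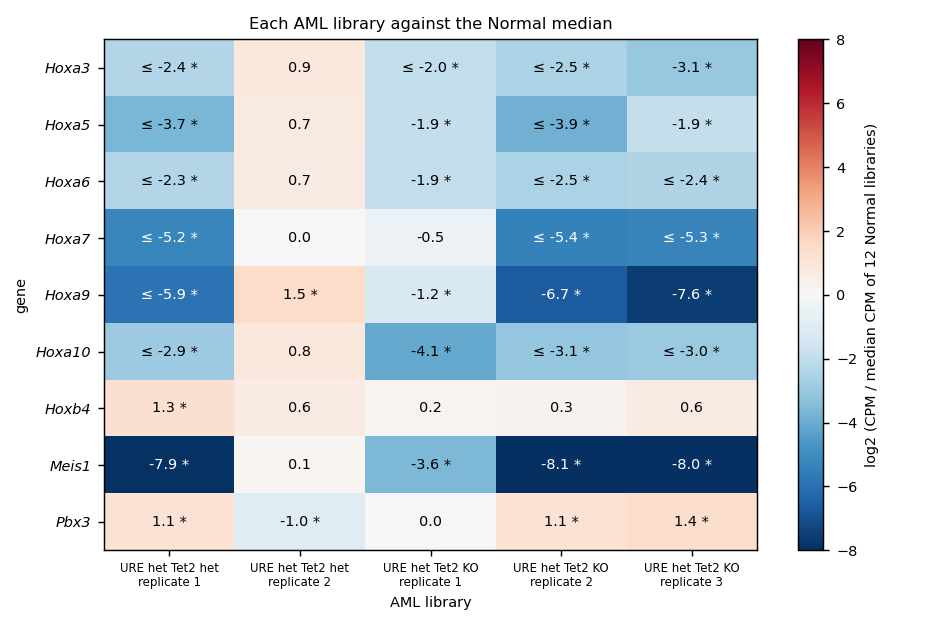
Each member in each AML library as log2 of its CPM over the median CPM of the 12 Normal libraries (number and colour, from blue for lower to red for higher). A star marks a value outside the range of the 12 Normal libraries, and a less-or-equal sign marks a library with 0 counts, set at 3 counts. In 3 columns the Hoxa and Meis1 cells are starred and lower, and Pbx3 is starred and higher.

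**Figure D2:**
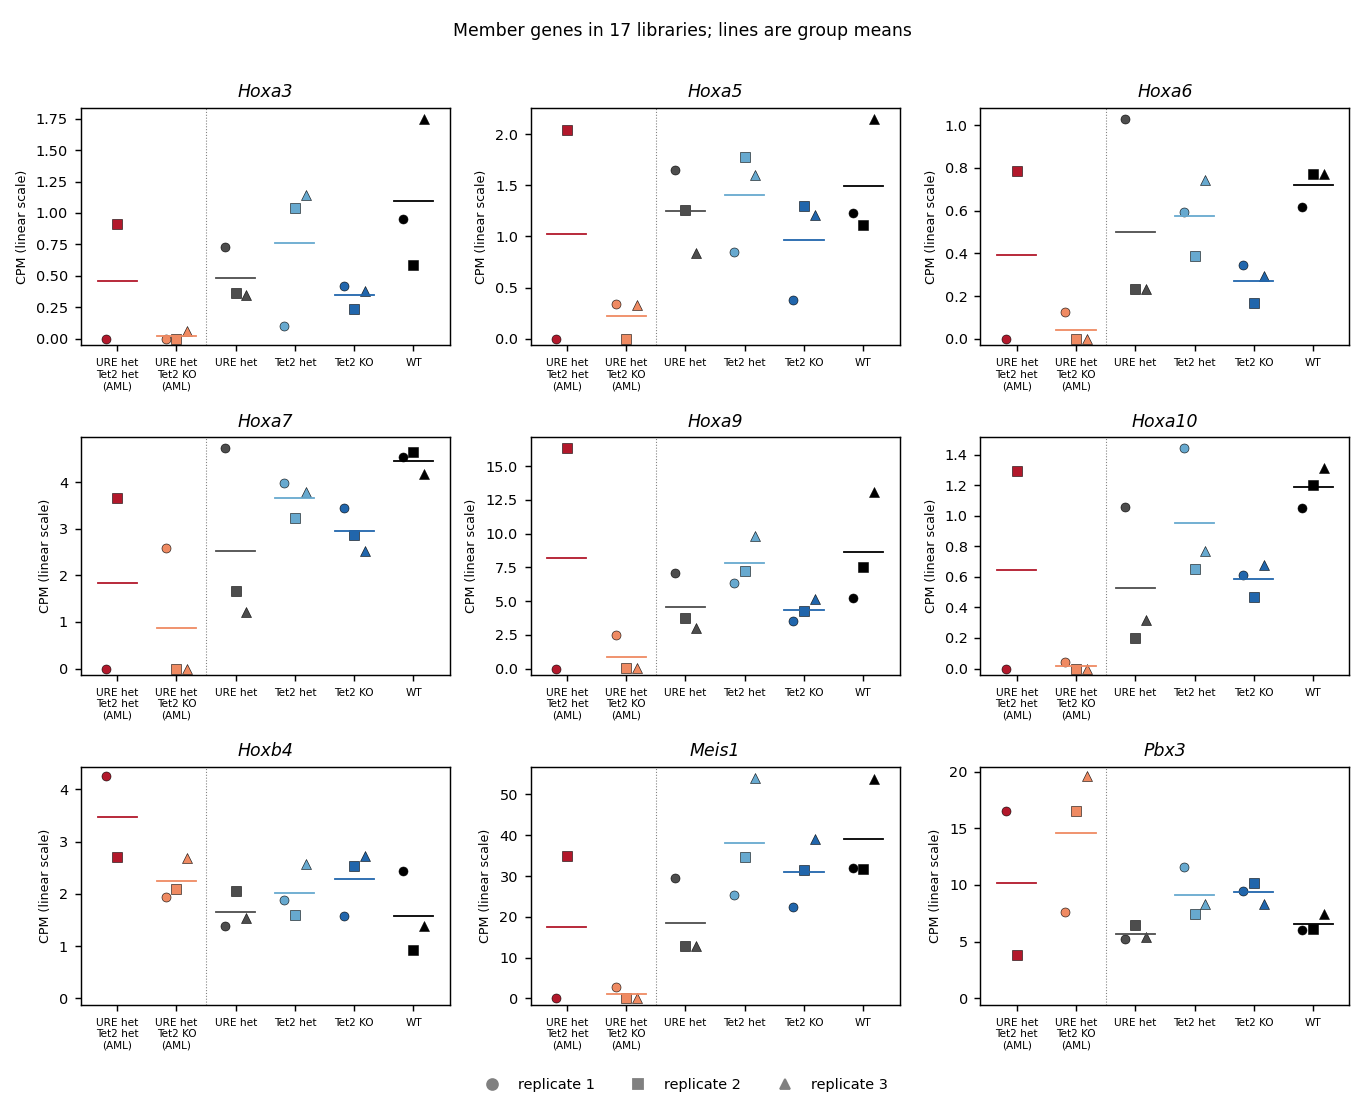
Level of each of the 9 members in each library (CPM, linear axis from 0), by genotype, with the AML groups at the left of the dotted line; each point is a library, its shape gives the replicate and the lines are group means. For Meis1, 4 of 5 AML points lie under the lowest Normal point of 12.9 CPM, and compound het 2 lies at 35.0 CPM.

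Meis1, the cofactor that partners Hoxa9 in stem cells and leukaemia, stood at 0.130 and 35.0 CPM in compound het and at 2.66, 0.115 and 0.121 CPM in compound KO. It was 29.4, 12.9 and 12.9 CPM in URE het, 25.4, 34.7 and 54.0 CPM in Tet2 het, 22.5, 31.4 and 39.1 CPM in Tet2 KO and 31.9, 31.7 and 53.7 CPM in WT. In 4 of 5 AML libraries it was thus lower than in every Normal library and in the fifth it was inside the Normal range. The silent libraries held 4 Meis1 reads each, which put them at 0.412% (compound het 1; exact 95% Poisson interval 0.112 to 1.06%), 0.363% (compound KO 2; 0.099 to 0.93%) and 0.383% (compound KO 3; 0.104 to 0.981%) of the Normal median of 31.6 CPM. These intervals cover counting error only, since reads are not independent molecules. Compound KO 1, with 63 reads, was at 8.44% (6.48 to 10.8%), and compound het 2 at 111%. In bulk RNA, fewer Meis1-positive cells and less Meis1 RNA per cell cannot be told apart.

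Hoxa9, which sustains self-renewal of stem cells and progenitors, had 0 and 769 reads in compound het, or 0.0 and 16.3 CPM. In compound KO it had 59, 2 and 1 reads, or 2.49, 0.0573 and 0.0302 CPM. Its Normal levels were 7.07, 3.72 and 2.97 CPM in URE het, 6.35, 7.22 and 9.78 CPM in Tet2 het, 3.51, 4.29 and 5.17 CPM in Tet2 KO and 5.21, 7.50 and 13.1 CPM in WT. Hoxa9 therefore lay outside the Normal range in all 5 AML libraries, below it in 4 and above it in 1. The library with no read was at least 59.3-fold lower than the Normal median of 5.78 CPM (taking 3 counts per library as the limit of detection). Compound het 2 was at 282% of that median and compound KO 1 at 43.1%. The libraries with 2 and 1 reads were at 0.992% (exact 95% Poisson interval 0.12 to 3.58%) and 0.523% (0.0132 to 2.91%).

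Hoxa10, the next gene of the cluster and a regulator of myeloid progenitor growth, was at 0.0 and 1.29 CPM in compound het and at 0.0423, 0.0 and 0.0 CPM in compound KO. It was at 1.06, 0.199 and 0.317 CPM in URE het, 1.44, 0.651 and 0.772 CPM in Tet2 het, 0.611, 0.466 and 0.676 CPM in Tet2 KO and 1.05, 1.20 and 1.31 CPM in WT. Its 3 libraries without a read were at least 7.43-, 8.42- and 7.99-fold lower than the Normal median (compound het 1 and compound KO 2 and 3). Compound KO 1 had a single read, whereas compound het 2 was inside the Normal range.

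Hoxa7, a homeodomain factor with a part in early progenitor growth, was the exception in compound KO 1. It stood at 0.0 and 3.65 CPM in compound het and 2.58, 0.0 and 0.0 CPM in compound KO. The Normal libraries held 4.72, 1.66 and 1.21 CPM (URE het), 3.97, 3.23 and 3.78 CPM (Tet2 het), 3.44, 2.86 and 2.53 CPM (Tet2 KO) and 4.53, 4.64 and 4.17 CPM (WT). Compound KO 1 was thus at 71.5% of the Normal median and inside the Normal range, while Meis1 in that library was at 8.44% and Hoxa10 at 5.84%. The libraries without a Hoxa7 read were at least 37.0-fold (compound het 1), 41.9-fold and 39.8-fold (compound KO 2 and 3) lower than the Normal median.

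Hoxa5, Hoxa6 and Hoxa3, the more weakly expressed Hoxa members, followed the same split. Hoxa5 was at 0.0 and 2.04 CPM in compound het and at 0.338, 0.0 and 0.333 CPM in compound KO, against 0.382 to 2.15 CPM in Normal libraries. Hoxa6 was at 0.0 and 0.785 CPM in compound het and at 0.127, 0.0 and 0.0 CPM in compound KO, against 0.166 to 1.03 CPM in Normal libraries. Hoxa3 was at 0.0 and 0.913 CPM in compound het and at 0.0, 0.0 and 0.0605 CPM in compound KO, against 0.0992 to 1.75 CPM in Normal libraries. In each of the 3 genes 4 AML libraries were below all 12 Normal libraries and compound het 2 was inside their range. Hoxa5 kept 8 and 11 reads in compound KO 1 and 3, close under its lowest Normal level.

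**Figure D3:**
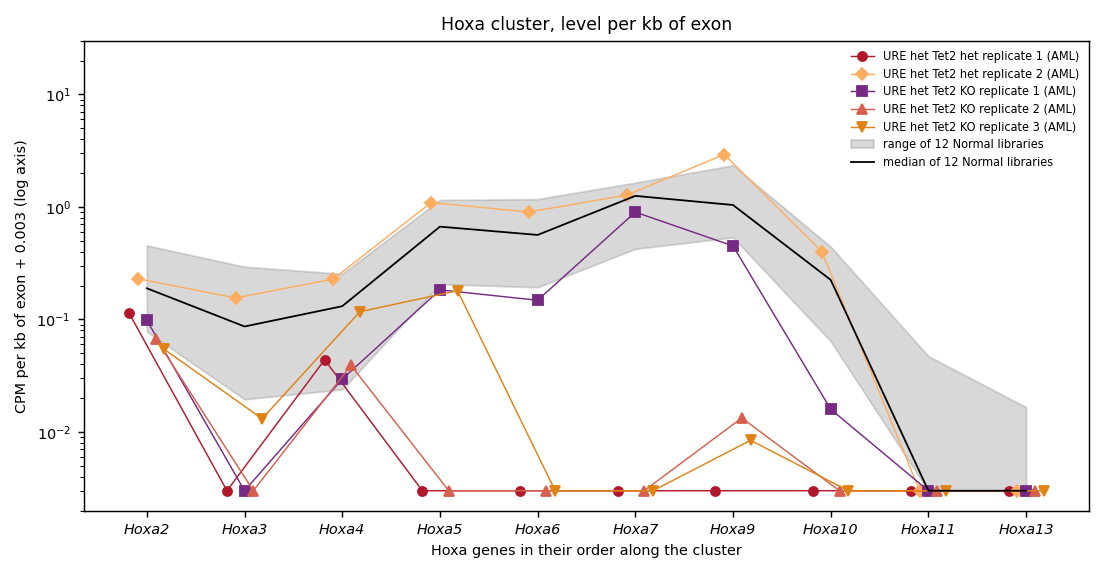
Level per kilobase of exon (CPM per kb + 0.003, log axis) of 10 Hoxa genes in their order along the cluster, for each AML library (coloured points, joined by lines) and for the 12 Normal libraries (grey range, black median). Points at 0.003 are libraries with 0 counts. Hoxa3, Hoxa5, Hoxa6, Hoxa9 and Hoxa10 lie under the grey range in every AML library but compound het 2. Hoxa7 lies under it in 3 AML libraries.

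Hoxb4, a factor known to expand stem cells in culture and the only Hoxb member here, was not among the low genes. It stood at 4.26 and 2.70 CPM in compound het and at 1.94, 2.09 and 2.69 CPM in compound KO. It was 1.39, 2.06 and 1.53 CPM in URE het, 1.88, 1.60 and 2.57 CPM in Tet2 het, 1.57, 2.53 and 2.73 CPM in Tet2 KO and 2.44, 0.923 and 1.38 CPM in WT. Compound het 1, which had no Hoxa9 read, held the highest Hoxb4 level of the 17 libraries, and the other AML libraries were inside the Normal range.

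Pbx3, the Pbx cofactor most often named with Hoxa9 in leukaemia, was at 16.5 and 3.84 CPM in compound het and at 7.57, 16.5 and 19.6 CPM in compound KO. It was 5.24, 6.44 and 5.43 CPM in URE het, 11.6, 7.46 and 8.29 CPM in Tet2 het, 9.50, 10.2 and 8.35 CPM in Tet2 KO and 5.98, 6.15 and 7.43 CPM in WT. The 3 AML libraries nearly silent for Hoxa9 and Meis1 were above all Normal libraries, at 222%, 222% and 263% of the Normal median. Compound het 2, with the highest Hoxa9 level, had the lowest Pbx3 level of all 17 libraries, at 51.6%.

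The 2 compound genotypes did not divide along this split, since each held nearly silent and less affected libraries. Compound KO against compound het called 0 of 9 members in edgeR's quasi-likelihood test, where 0.01% of all genes were called, and 5 members had an unadjusted p under 0.05 (2344 genes did, DESeq2 called 1 member). Spi1, the gene whose enhancer was deleted, stood at 21.6 and 34.9 CPM in compound het and at 98.6, 7.83 and 12.2 CPM in compound KO, against 45.3 to 137 CPM in Normal libraries (90.9 to 137 CPM in the 5 with title numbers 1 to 7 and 45.3 to 63.1 CPM in the 7 with 8 to 17). The libraries nearly silent for Meis1 had the lowest Spi1 of all libraries, at 21.6 CPM (compound het 1), 7.83 CPM (compound KO 2) and 12.2 CPM (compound KO 3). They were also the libraries with the low stretch of chromosome 2. Compound KO 1, with the highest AML level of Spi1, had low Meis1 and Hoxa10. Compound het 2, with Spi1 under the Normal range, had Meis1 inside it. Whether Spi1 had a part in the members' levels was not tested.

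Averaged over genotypes, AML was lower than Normal for Hoxa10 and Meis1, and the other 7 members did not pass the test (edgeR quasi-likelihood, Benjamini-Hochberg adjustment over 19951 genes, threshold 0.05). Hoxa10 averaged 0.267 ± 0.575 CPM in AML (SD, n = 5) and 0.813 ± 0.397 CPM in Normal (n = 12), and fell by 2.93 on the log2 scale (SE 0.86, 7.63-fold, edgeR adjusted p = 0.0412). Meis1 averaged 7.60 ± 15.3 CPM in AML and 31.6 ± 13.1 CPM in Normal, with a log2 change of -2.91 ± 0.89 (SE, edgeR adjusted p = 0.0485). Calls of a lower level thus reached 2 of 9 members, where 4.02% of all genes were called lower, and calls of a higher level 0 of 9, where 6.94% were. The members' median log2 change was -1.42, beside 0.05 over all genes. Unadjusted p was under 0.05 for 6 of 9 members, where it was for 5252 of 19951 genes. Among those 6, Pbx3 and Hoxb4 were higher in AML and the others lower.

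Hoxa9 averaged 3.78 ± 7.09 CPM in AML and 6.32 ± 2.91 CPM in Normal, with a log2 change of -1.21 ± 0.90 (SE, edgeR adjusted p = 0.424), and its SD in AML was larger than its mean. The remaining Hoxa members had log2 changes of -2.49 ± 0.86 (Hoxa3, adjusted p = 0.078), -1.94 ± 0.82 (Hoxa6, 0.145), -1.42 ± 0.95 (Hoxa7, 0.368) and -1.40 ± 0.75 (Hoxa5, 0.251). Pbx3 averaged 12.8 ± 6.74 CPM in AML and 7.67 ± 2.0 CPM in Normal, a log2 change of 0.70 ± 0.27 (adjusted p = 0.113). Hoxb4 averaged 2.74 ± 0.917 CPM in AML and 1.88 ± 0.578 CPM in Normal, a log2 change of 0.58 ± 0.25 (adjusted p = 0.158).

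These averages rested on single libraries. Without compound het 2, which leaves 1 library in compound het, the log2 changes were -6.44 for Meis1, -6.70 for Hoxa9, -6.60 for Hoxa10 and 1.04 for Pbx3. Without compound KO 1, edgeR called 6 members and 3998 of 19868 genes, beside 2 members and 2188 of 19951 genes with all libraries. Without URE het replicate 2 or 3 it called 1 member, with 1596 of 19916 and 1909 of 19867 genes. Without any one of the other libraries, compound het 1 aside, it called 0 members. Genes called then ran from 1229 (without compound KO 2) to 2018 (without Tet2 KO replicate 1). Omitting compound het 1 also leaves 1 library in compound het. Within the libraries titled with numbers 8 to 17, which hold 3 of the 5 AML libraries and 1 each of compound het and WT, Meis1 changed by -3.97 on the log2 scale. With a term for the title range over all libraries, edgeR called 3 members and 3664 of 19951 genes. The members were Hoxa10, Meis1 and also Hoxa3 (-2.74, edgeR adjusted p = 0.0369). The libraries titled 1 to 7 held 1 AML library of each compound genotype, and both were below all Normal libraries for Meis1. Pbx3 lost its direction without compound het 1 (-0.01 on the log2 scale).

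**Figure D4:**
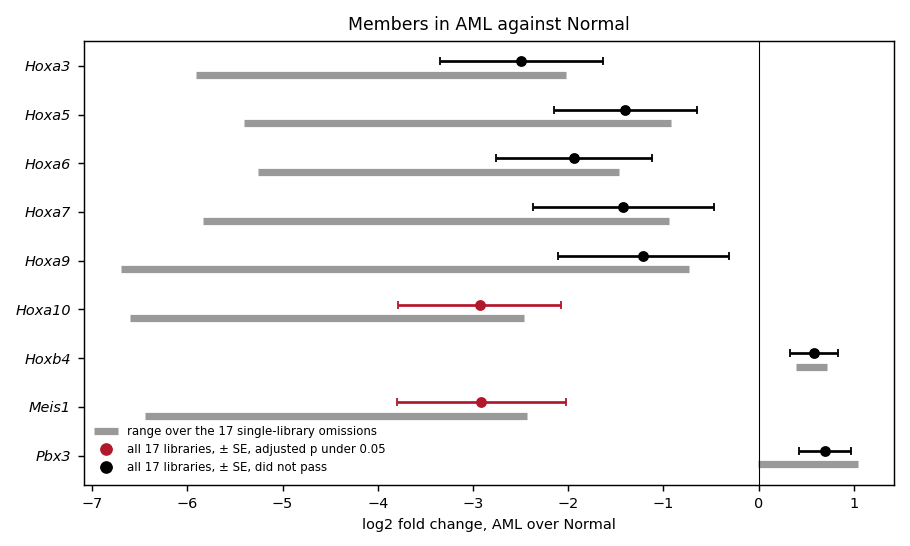
Log2 fold change of each member in AML over Normal (points, with SE as bars, red where edgeR's adjusted p was under 0.05) and the range of the estimate when each of the 17 libraries was left out in turn (grey bars). The 6 Hoxa genes and Meis1 lie at negative values and their ranges reach -5.26 to -6.70, each in the fit without compound het 2.

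Each compound genotype was then set against its single mutants. Every compound library was AML and every single-mutant library Normal, so the added mutation and leukaemia cannot be told apart in these comparisons. In compound KO against Tet2 KO, edgeR called 0 of 9 members (0.396% of all genes were called higher and 0.581% lower, 0.977% in all). Unadjusted p was under 0.05 for 3 members (3014 genes). DESeq2 called 2 members and 1212 of 19951 genes, and voom 7 members and 3665 genes. The log2 changes in that comparison were -5.07 ± 1.34 for Meis1 (SE, edgeR adjusted p = 0.0769), -5.27 ± 1.41 for Hoxa10 (0.0818), -2.39 ± 1.36 for Hoxa9 (0.445), 0.64 ± 0.43 for Pbx3 (0.526) and -0.02 ± 0.39 for Hoxb4 (0.987). All 3 compound KO libraries were below all 3 Tet2 KO libraries for 6 of 9 members, Meis1, Hoxa9, Hoxa10, Hoxa3, Hoxa5 and Hoxa6, where 9.57% of all genes tested were, and above them for 0 of 9, where 8.35% were. The gap was narrow for Hoxa5 (highest compound KO level 0.338 CPM, lowest Tet2 KO level 0.382 CPM) and for Hoxa6 (0.127 and 0.166 CPM). Without compound KO 1, 4 members and 1799 of 19868 genes were called.

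In compound KO against URE het, edgeR called 0 of 9 members (0.14% of genes higher, 0.216% lower, 0.356% in all). Unadjusted p was under 0.05 for 6 members (3007 genes). DESeq2 called 3 members and 1013 of 19951 genes, and voom 7 members and 3420 genes. Without compound KO 1, 6 members and 1789 of 19868 genes were called. The same 3 compound KO libraries lay below all 3 URE het libraries for those 6 members too, where 9.62% of all genes tested did, and above them for 1, Pbx3, where 8.27% did. Compound KO thus enters both comparisons, which share those libraries.

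Compound het called 0 of 9 members against Tet2 het and 0 of 9 against URE het in edgeR, where 0.0% of all genes were called in either. Unadjusted p was under 0.05 for 0 members (2652 genes) and for 1 member (2634 genes), and DESeq2 and voom called 0 members in both. Its 2 libraries were the nearly silent and the Normal-like one, at 0.130 and 35.0 CPM of Meis1. Without compound het 2, 1 library is left in that group, whose spread is then taken from the other groups. Calls rose in that fit over all genes as well as among members, so they do not single out the members.

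The single mutants addressed whether either change alone moved these genes in mice without leukaemia. In edgeR 0 of 9 members and 0.0% of all genes were called in URE het, Tet2 het or Tet2 KO against WT, and 0 members had an unadjusted p under 0.05 in any of the 3 comparisons, where 753, 585 and 512 genes did. DESeq2 called 7, 1 and 12 genes and voom 84, 0 and 90, with no member among them. Meis1 changed by -1.09 ± 1.11 in URE het, -0.04 ± 1.09 in Tet2 het and -0.34 ± 1.09 in Tet2 KO on the log2 scale (SE, edgeR adjusted p = 1 in each), and Hoxa9 by -0.91 ± 1.25, -0.14 ± 1.24 and -0.99 ± 1.25 (adjusted p = 1). URE het replicates 2 and 3 had Meis1 at 12.9 CPM each, far below all 3 WT libraries. Replicate 1, at 29.4 CPM, was only just below the lowest WT level of 31.7 CPM. Within title numbers 8 to 17, where WT has 1 library, edgeR called Meis1 lower in URE het (log2 change -2.06, adjusted p = 0.0472).

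The libraries of a single mutant were also checked for overlap with the 3 WT libraries. In URE het, 1 of 9 members, Meis1, was below WT in all 3 libraries, where 6.8% of all genes tested were, and 0 were above, where 5.94% were. In Tet2 het, 1 of 9, Hoxa7, was below (4.98%) and 1, Pbx3, above (5.56%). In Tet2 KO, 5 of 9 were below WT (5.34%), namely Hoxa3, Hoxa6, Hoxa7, Hoxa9 and Hoxa10, and 1, Pbx3, was above (4.18%). The gap was narrow for Hoxa9, with a highest Tet2 KO level of 5.17 CPM and a lowest WT level of 5.21 CPM.

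The table also holds rows that carry a gene's identifier with the ending _enh, whose coordinates and making are not given in the sources used here. Meis1 has 12 such rows and Pbx3 has 5, and no Hox member has one. Summed over its rows, Meis1 had 0.0325 and 18.7 CPM in compound het and 1.82, 0.229 and 0.0 CPM in compound KO, against 6.67, 18.3 and 53.6 CPM as the lowest, median and highest Normal library. The libraries nearly silent for the Meis1 gene were thus nearly silent in these rows too. Of 8 Meis1 rows tested in AML against Normal, 5 were called lower (edgeR, adjusted p 0.014 to 0.0431) and 0 higher, where 1.08% of all such rows were called lower and 2.98% higher (4.06% in all). Their median log2 change was -3.16 (range -4.32 to -2.42), beside 0.0 over all such rows. Whether these rows and the gene row count shared reads was not tested. The 4 tested Pbx3 rows had a median log2 change of 0.18 and 0 of them was called.

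**Figure D5:**
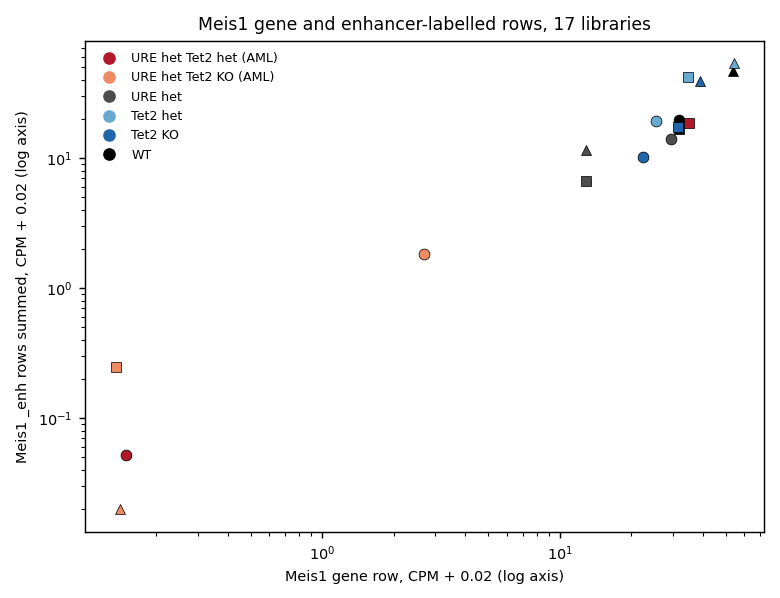
Summed level of the Meis1 rows ending in _enh against the level of the Meis1 gene row in each of 17 libraries (both CPM + 0.02, log axes), coloured by genotype with the AML groups first; circles, squares and triangles are replicates 1, 2 and 3. The 3 nearly silent AML libraries lie at the lower left, compound KO 1 between, and compound het 2 among the Normal libraries.

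Other Hox genes were higher in AML or did not pass the test. Of 32 other Hox genes, 8 had enough counts to be tested. Of these, 2 were called higher and 0 lower, where 6.94% and 4.02% of all genes were. Their median log2 change was 1.32, beside 0.05 over all genes. Hoxb7 had 40 and 3 reads in compound het and 0, 16 and 14 in compound KO, against 0 to 13 in Normal, and rose by 4.18 ± 0.92 on the log2 scale (SE, edgeR adjusted p = 0.0132). It was highest in the libraries nearly silent for Hoxa9, although its counts are low. Hoxa2 and Hoxa4, also of the Hoxa cluster, had log2 changes of -0.81 and -0.45 and were not called.

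Of the other TALE genes, 8 of 9 were tested and 0 were called in either direction (median log2 change 0.06), among them Pbx2 with a change of 0.07. Pknox2, a relative of Meis1, changed by -1.81 (adjusted p = 0.128). Among 20 tested regulators of Hox transcription, the group of chromatin and export factors around these genes, 1 was called higher and 1 lower, with a median of -0.04. These counts are near the shares over all genes, 6.94% higher and 4.02% lower. The called genes were Cbx7, a Polycomb subunit (1.02, edgeR adjusted p = 0.0294), and Xpo1, the nuclear export receptor (-0.49, edgeR adjusted p = 0.0133).

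Of 15 genes attributed in the literature to Hoxa9 and Meis1 as targets, 4 were called lower and 3 higher, where 4.02% and 6.94% of all genes were. Their median log2 change was -0.43. Those lower were Trib2, a pseudokinase (-3.32, edgeR adjusted p = 0.00517), Mycn, a transcription factor of the Myc family (-2.94, 0.0443), Hlf, a stem cell transcription factor (-0.89, 0.0316), and Bcl2, which blocks apoptosis (-0.87, 0.03). Those higher were Pim1, a survival kinase (1.18, 0.0111), Hif1a, the hypoxia factor (0.98, 0.0194), and Cdk6, a cell cycle kinase (0.75, 0.0397). Cd34, a stem and progenitor surface marker, was at 0.065 and 73.6 CPM in compound het and at 10.1, 0.545 and 0.393 CPM in compound KO, against 59.4 to 145 CPM in Normal libraries, an order like that of Meis1. It did not pass the test (-2.91, adjusted p = 0.068).

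Over all 17 libraries, likeness to a member was measured as the root mean square difference of centred log2 CPM, over 9907 genes of sufficient level. Among the genes most like Meis1 were Slc22a3 (0.42), Myct1 (0.51) and Zfp521 (0.59). Among those most like Hoxa9 were the stem cell factor Tal1 (0.52), Adgra3 (0.57) and Med12l (0.57). Among the members the value was 0.59 between Hoxa7 and Hoxa9 and 0.88 between Hoxa9 and Meis1, whereas it was 3.51 between Hoxb4 and Meis1 and 3.72 between Pbx3 and Meis1. Both AML and Normal libraries entered each value, so that genes with a like split among the AML libraries came first.

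Genes flanking the members, 3 on each side and chosen after values were seen, had reads in every AML library. Around the Hoxa cluster, Cbx3, Snx10, Skap2, Hibadh, Tax1bp1 and Jazf1 stood at 37.4 to 504% of their Normal medians over the 5 AML libraries. Jazf1, 528 kb away, was called higher (log2 change 1.73, edgeR adjusted p = 0.0192), and Snx10 (-0.74, 0.00566) and Cbx3 (-0.56, 0.0161) were called lower. Around Meis1, Spred2, an inhibitor of Ras signalling 905 kb away, was called lower (-1.02, adjusted p = 0.0129) and was at 28.0 to 81.5% of its Normal median, while Wdr92, C1d, Etaa1, Actr2 and Rab1a were not called.

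Markers of several cell types differed between AML and Normal libraries beside the members. The counts of called markers stand beside 4.02% of all genes called lower and 6.94% called higher. The 15 stem and early progenitor markers were called lower in 6 and higher in 0 (median log2 change -1.98), and summed to 204 and 400 CPM in compound het and 173, 204 and 187 CPM in compound KO, against 301 to 588 CPM in Normal libraries. The library with Normal-range Meis1 was the only AML library within the Normal range of this sum. The same held for its sums of B cell markers (38.4 CPM), of megakaryocyte markers (36.7 CPM) and of mast cell, basophil and eosinophil markers (101 CPM). Hlf, Mycn and Cd34 stand in that list and in the target list alike. Granulocyte and monocyte progenitor markers were called higher in 3 of 10 and lower in 0 (sums 6580 to 13200 CPM in AML and 3270 to 9970 CPM in Normal), and late neutrophil markers lower in 5 of 8 and higher in 0 (11700 to 38300 CPM in AML and 26300 to 93200 CPM in Normal). B cell markers were lower in 7 of 10 and higher in 0 (1.75 to 38.4 CPM in AML and 19.9 to 62.2 CPM in Normal), and mast cell, basophil and eosinophil markers lower in 5 of 8 and higher in 0 (19.9 to 101 CPM in AML and 100 to 277 CPM in Normal). T and NK cell markers were lower in 1 of 8 (19.2 to 93.1 CPM in AML and 64.2 to 160 CPM in Normal), erythroid in 1 of 10 (59.7 to 175 CPM in AML and 120 to 276 CPM in Normal) and megakaryocyte in 2 of 7 (1.81 to 36.7 CPM in AML and 17.3 to 37.3 CPM in Normal). Stromal and endothelial markers were higher in 1 and lower in 2 of 9 (7.95 to 38.8 CPM in AML and 12.2 to 24.5 CPM in Normal). The endothelial marker Cdh5 was at 0 in every AML library and at most 0.677 CPM in Normal. The part of the cell make-up in the members' levels was not tested.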

How the data were processed

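Gene counts of 17 libraries were deposited by the authors as whole-number counts per gene, not normalized. Reads had been aligned with STAR to GRCm38, per the submitters' processing notes; the version of STAR, the annotation, the counting tool and its strand option are not given in the sources used here. In all there are 96004 rows, of which 47643 are gene rows and the rest end in _enh. Of the gene rows, 47224 identifiers matched GENCODE vM21. All gene rows were fitted with edgeR 4.0.16 (R 4.3.3; quasi-likelihood, robust, TMM scaling, 1 mean per genotype, all 17 libraries in one fit, 19951 genes after filterByExpr with at least 10 counts), with Benjamini-Hochberg adjustment over all genes tested and a threshold of 0.05. AML against Normal sets the mean of 2 compound genotypes against the mean of 4 Normal genotypes. Rows ending in _enh were fitted in the same way, apart (19803 rows). The fit was tested on simulated data. Alternatives were DESeq2 1.42.0, limma 3.58.1 (voom with quality weights), other scaling and filtering, the compared groups alone, a term for the title number range (1 to 7 or 8 to 17), a sex term, and the omission of each library. Named genes were the members, up to 4 called genes of each list by smallest p, Spi1 and Tet2 as the targeted genes, and the 4 protein-coding genes most like Meis1 and like Hoxa9 with a mean log2 CPM of at least 1; some genes that this rule names are not reported here, and further list genes named were chosen after their values were seen. The members and lists were chosen with earlier results of these data known; flanking genes, motifs and windows shown were chosen after values were seen. Gene counts per library ran from 21.1 M to 38.25 M, and intervals and limits of 3 counts cover counting error only. Depth limits statements on Hoxa3, Hoxa6, Hoxa10 and Hoxb7, which had few reads in any library.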

Additional observations from a re-analysis of the deposited data

Results flagged for a closer look

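Among the 5 AML libraries, URE het Tet2 het replicate 2 (compound het 2) stood far from the other 4 for Hoxa10 and Hoxa3, by the gap to its nearest neighbour over the whole range of log2 CPM (0.833 and 0.755, where Dixon's 95% critical value for 5 libraries is 0.71). Hoxa10 was at 1.29 CPM in that library and at 0.0 to 0.0423 CPM (0 or 1 reads) in the other AML libraries. Hoxa3 was at 0.913 CPM there and at 0.0 to 0.0605 CPM (0 or 2 reads) in the others. At so few reads log2 CPM cannot set the other libraries apart, so the flag rests in part on the limit of detection. Chance alone marks about 1 in 20 groups in this way, and 9 genes were examined. For Meis1 and Hoxa9 the same library was also the highest of the 5, but the gap did not pass the critical value (0.483 and 0.334).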

How the results depend on the processing

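Over 26 alternatives, the 6 Hoxa members and Meis1 kept a negative change in AML against Normal, and Hoxb4 a positive one. With the sex term, which leaves out 2 AML libraries, most shrank: Hoxa9 to -0.24, Hoxa5 to -0.47, Hoxa7 to -0.70, Hoxa6 to -1.13 and Hoxa3 to -1.16. Without those libraries and with no sex term, the same genes were at -0.44, -0.61, -0.63, -1.16 and -1.73. The drop was thus largely present before the sex term entered. Adjusted p ran from 9.29e-05 to 0.206 for Meis1 (called in 8) and from 0.000739 to 0.223 for Hoxa10 (called in 11). Pbx3 ranged from -0.01 to 1.04 over single omissions and reversed to -0.01 without compound het 1, -0.12 with a sex term and -0.06 without the 2 AML libraries that this term leaves out, a setting chosen after seeing the data. AML against Normal called 2 members and 2188 genes. It called 1 member with no filter on low counts, 3 (Hoxa10, Hoxa3 and Meis1) with a term for the title range, 4 with DESeq2, 4 with voom, 6 within title numbers 8 to 17, and 0 with the sex term or without the libraries it leaves out. Single omissions gave 0 to 8 members. Genes called were 3664 with a term for the title range, 4303 within 8 to 17, 45 with the sex term, 610 without those libraries and 845 to 3998 over single omissions. Calls split into 1385 higher and 803 lower in edgeR, 1627 and 1628 in DESeq2, and 792 and 766 in voom. In compound KO against Tet2 KO, members called were 0 in edgeR, 2 in DESeq2, 7 in voom, 7 within 8 to 17 and 0 to 4 over omissions. Genes called were 195, and 1212 (DESeq2), 3665 (voom), 23 (compared groups alone), 415 (title term), 3512 (8 to 17) and 3 to 1799 (omissions). There Hoxb4 ranged from -0.23 to 0.13 over omissions and reversed to 0.07, 0.05, 0.13 and 0.01 without compound KO 1, Tet2 KO replicate 2, Tet2 KO replicate 3 and compound KO 2. In compound KO against URE het, members were 0, and 3 (DESeq2), 7 (voom), 7 (8 to 17) and 0 to 6 (omissions), and genes 71, and 1013, 3420, 15 (alone), 258 (title term), 3753 (8 to 17) and 0 to 1789. In compound het against Tet2 het, 0 members (0 to 4 over omissions) and 0 genes were called, and 599 (DESeq2), 145 (title term), 838 (8 to 17) and 0 to 1219 genes. Against URE het, members were 0, and 2 within 8 to 17 (Hoxa9 and Meis1, both higher in compound het 2, the only library of its group there) and 0 to 2 over omissions (Meis1 lower and Pbx3 higher without compound het 2), and genes 0, and 530 (DESeq2), 3 (alone), 108 (title term), 1496 (8 to 17) and 0 to 855. Compound KO against compound het called 0 members, and 1 (DESeq2), 8 (8 to 17, against compound het 2 alone) and 0 to 6 (omissions), and 2 genes, and 335 (DESeq2), 0 (voom), 0 (alone), 14 (title term), 4861 (8 to 17) and 1 to 1015. In URE het against WT, 1 member within 8 to 17 (Meis1, -2.06, adjusted p = 0.0472, with 1 WT library there) and 7 (DESeq2), 84 (voom) and 10 (8 to 17) genes were called, in Tet2 het 1 gene (DESeq2), and in Tet2 KO 12 (DESeq2) and 90 (voom). In Tet2 het against WT, Meis1 ranged from -0.39 to 0.26 over omissions and reversed to 0.31 (voom), 0.18, 0.03 and 0.26 (without Tet2 het replicate 1, Tet2 het replicate 2 and WT replicate 3), and Hoxa9 ranged from -0.41 to 0.29 and reversed to 0.29 in voom and 0.29 without WT replicate 3. The cause of these changes was not tested. For AML against Normal, the compared groups alone are the whole table, so that no separate fit exists. No paired analysis was possible because the title numbers run from 1 to 17 with no number shared between groups. At this depth a library with 0 counts sets only a lower limit on the fold, most closely for Hoxa3, Hoxa6 and Hoxa10, whose Normal levels were low.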

Other observations

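Tal1, a transcription factor of stem cells, was at 0.065 and 13.9 CPM in compound het and at 8.83, 0.143 and 0.0907 CPM in compound KO, against 7.89 to 18.3 CPM in Normal libraries, so that it was inside the Normal range in compound KO 1, where Meis1 was not. Its average did not pass the test (log2 change -1.39 ± 0.89, edgeR adjusted p = 0.345).

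Other genes were highest in the 3 AML libraries nearly silent for Meis1 and Hoxa9 (compound het 1 and compound KO 2 and 3). Hif1a was at 209 and 62.5 CPM in compound het and at 92.1, 264 and 226 CPM in compound KO, against 62.8 to 113 CPM in Normal libraries. Cdk6 was at 2480 and 1060 CPM in compound het and at 1770, 3430 and 2070 CPM in compound KO, against 743 to 1630 CPM in Normal libraries. Jazf1, which flanks the Hoxa cluster, was at 15.9 and 2.84 CPM in compound het and at 1.18, 11 and 13 CPM in compound KO, so that it was lowest among AML libraries in compound KO 1, where Hif1a was inside the Normal range. These genes were singled out after their values were seen.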
